A study of Mus musculus with 6 samples.

Results

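The genes described here are 10 response genes of tumour necrosis factor (TNF) and NF-κB, namely Tnf, Tnfrsf1b, Tnfrsf12a, Nfkbia, Tnfaip3, Nfkb2, Relb, Birc3, Icam1 and Vcam1. They were taken by symbol from the deposited table of 17975 genes. All 10 were in the table, and all 10 passed the filter on low counts that left 13805 genes for the test. Tnf passed it only through its counts in the knock-out livers. Total RNA was sequenced from whole liver tissue of 3 wild type (WT) and 3 NEK7 hepatocyte knock-out (Hom) mice, 1 liver per mouse. The Hom mice carried Nek7 fl/fl alleles together with an Alb-Cre transgene, whose albumin promoter is used to drive the recombinase in hepatocytes. Deletion in each cell type of the tissue was not measured here. The study states an age range for its mice as a whole, in weeks. It gives ages in months for the knock-out mice, Hom mice included, in which it describes spontaneous liver fibrosis. It also states the use of both sexes in its knock-out experiments. Which age and sex each of the 6 sequenced mice had, and whether the WT mice carried floxed alleles or Cre, is not given in the sources used here, and no treatment is named for either group.

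TNF is a cytokine made mainly by macrophages and other leukocytes. Through its receptors it frees NF-κB, a family of Rel transcription factors that inhibitor proteins hold in the cytoplasm. In the canonical arm the IKK complex marks the inhibitor IκBα for destruction and releases RelA with p50. In the non-canonical arm the kinase NIK, kept low by TRAF3 and the cIAP proteins, drives the processing of p100 to p52, which acts with RelB. Among the genes switched on are the pathway's own inhibitors, survival factors and the endothelial adhesion molecules that let leukocytes into the liver.

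Promoter sequences are shown for the 3 of these genes in which the κB consensus, the motif that Rel dimers bind, was found, because 2 of the 3 (Tnfaip3 and Nfkb2) rose in Hom livers and 1 (Nfkbia) did not pass the test. The windows of Tnf, Tnfrsf12a, Birc3 and Icam1, which also rose, and that of Tnfrsf1b held no match. RefSeq promoter windows on GRCm38.p6, each 300 bases long with 250 bases before and 50 after a transcription start, were matched for 8 of the 10 genes. Both strands were searched for the 10-base κB consensus GGGRNNYYCC (R is A or G, Y is C or T, N is any base), and overlapping matches were kept. Near matches were not counted. The Icam1 window, for instance, holds TGGAAATTCC, which departs from the consensus at its first base. The windows are written 5′ to 3′ on the strand of the gene, and capitals mark the matched bases. Nfkbia lies on the minus strand with its window at chr12:55492598-55492897. Tnfaip3 also lies on the minus strand, and its first window is chr10:19015361-19015660. Nfkb2 lies on the plus strand, and its first window is chr19:46304487-46304786.
Nfkbia: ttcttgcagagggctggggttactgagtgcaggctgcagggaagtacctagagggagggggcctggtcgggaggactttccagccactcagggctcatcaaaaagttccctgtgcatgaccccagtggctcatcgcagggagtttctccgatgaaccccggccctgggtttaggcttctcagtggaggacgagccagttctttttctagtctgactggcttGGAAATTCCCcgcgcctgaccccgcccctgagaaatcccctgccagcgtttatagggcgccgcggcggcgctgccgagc
Tnfaip3: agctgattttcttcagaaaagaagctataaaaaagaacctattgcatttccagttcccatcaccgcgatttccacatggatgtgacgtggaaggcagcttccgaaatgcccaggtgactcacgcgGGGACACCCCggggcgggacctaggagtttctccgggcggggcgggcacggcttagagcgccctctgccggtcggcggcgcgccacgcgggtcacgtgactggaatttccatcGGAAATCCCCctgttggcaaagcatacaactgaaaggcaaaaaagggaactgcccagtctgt
Nfkb2: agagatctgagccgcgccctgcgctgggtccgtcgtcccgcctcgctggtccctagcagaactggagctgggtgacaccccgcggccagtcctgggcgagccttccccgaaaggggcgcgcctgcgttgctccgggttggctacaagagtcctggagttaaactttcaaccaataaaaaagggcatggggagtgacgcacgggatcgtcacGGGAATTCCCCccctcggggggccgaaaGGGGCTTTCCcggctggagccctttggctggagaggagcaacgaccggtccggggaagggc

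Nfkbia held 1 match, GGGAATTTCC on the opposite strand, from position -29 relative to the start. Tnfaip3 held GGGGATTTCC on the opposite strand from position -12, and from position -125 GGGACACCCC, whose reverse complement GGGGTGTCCC is a match too. Nfkb2 held the palindrome GGGAATTCCC from position -39, overlapped by GGGGAATTCC on the opposite strand from -38, and GGGGCTTTCC from -11. Of the other Nfkb2 windows, which overlap, both held GGGACTTTCC, which is the same genomic site seen from different starts, and 1 also held GGGACATTCC on the opposite strand. In all, 3 of 8 genes held a match, in 5 of 11 windows, with that Nfkb2 site counted in both of its windows. Over the whole promoter table the share was 8.46% of 32851 windows, and among tested genes with a window 12.5% of 11006 held a match in any window. These are matches of letters in a short stretch, and binding was not measured.

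Libraries were of like depth, with estimated counts summing to between 19349418 and 19730236 per liver, so that precision is limited mainly for Tnf, at 3 to 5 counts in each WT liver. Nek7 itself was at 65.2 ± 3.36 CPM (read counts scaled to a common library total with TMM factors; SD, n = 3 mice) in WT and at 16.4 ± 1.83 in Hom livers (log2 fold change −1.99, adjusted p = 1.59e-04, edgeR). No pair of livers of 1 group agreed within counting noise. Of the livers, 2 stood apart. In WT replicate 1, genes of neutrophils and other leukocytes were raised: its CPM was 19.5 times the mean of the other WT livers for S100a8, 16.4 times for S100a9 and 3.04 times for Ptprc, which encodes CD45. It had 257 counts of Mpo, the gene of myeloperoxidase, against 2 and 1 in the other WT livers. S100a8, S100a9 and Mpo were singled out after their values were seen. Hom replicate 1 had 0 counts of the Y-linked genes Ddx3y and Kdm5d, 4 of Eif2s3y and 149 of Uty, against at least 630, 243, 582 and 464 in each of the other 5 livers. Results that turn on either library are given with and without it.

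Of the 10 response genes, 7 rose in Hom livers and 0 fell. A gene was called where its Benjamini-Hochberg adjusted p, over all genes tested, was below 0.05 in the quasi-likelihood F test of edgeR. At an unadjusted p below 0.05 the numbers were 8 and 0, and DESeq2 also called 8 higher and 0 lower. Among all 13805 genes tested, 21.5% were higher and 20.1% were lower by the same rule (2974 and 2780 genes, 6574 and 642 with library size alone in place of TMM factors, and 3477 and 2060 with upper-quartile factors). The genes that rose were Tnf, Tnfrsf12a, Tnfaip3, Nfkb2, Relb, Birc3 and Icam1, by log2 fold changes of 1.00 to 2.51. Vcam1 missed the threshold narrowly, and Nfkbia and Tnfrsf1b had small negative values. The median log2 fold change was 1.60 over the 10 genes and −0.0018 over all genes tested. All 3 Hom livers lay above all 3 WT livers for 8 of the 10 genes, which held for 28.7% of all genes. For each of those 8 an exact two-sided permutation test gave p = 0.1, the lowest value this design can reach. In whole tissue a change in the number of cells of a type and a change in RNA per cell cannot be told apart.

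**Figure D1:**
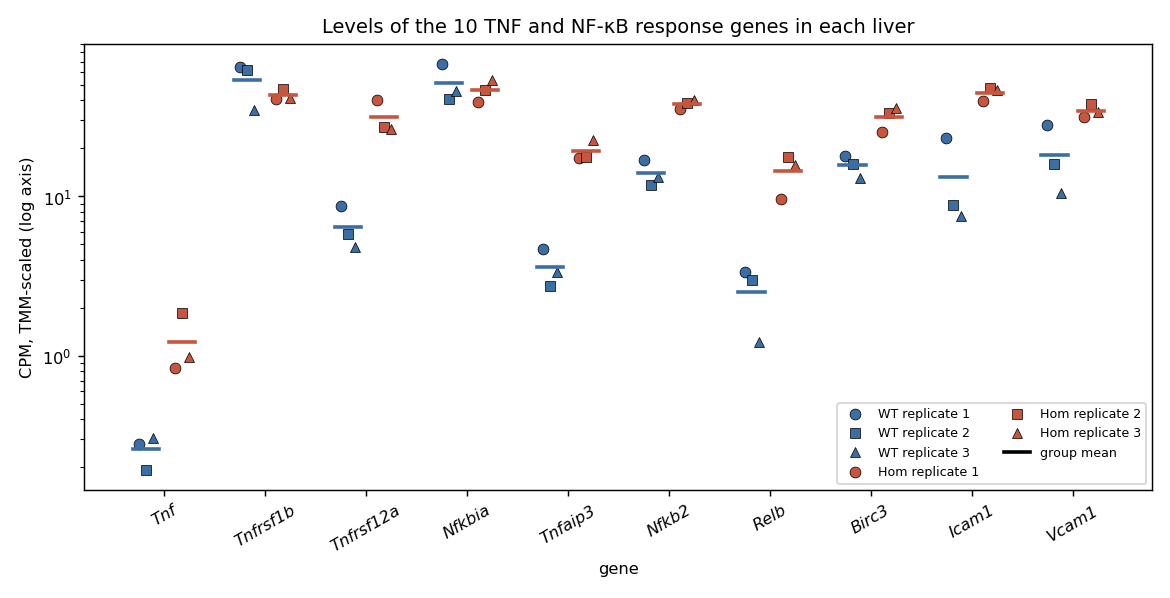
Level of each response gene in each liver, in TMM-scaled CPM on a log axis; the symbol gives the replicate, blue is WT, red is Hom, and bars are group means. All 3 Hom livers sit above all 3 WT livers for 8 genes, and the groups overlap for Nfkbia and Tnfrsf1b.

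Tnf, the ligand, was the least abundant of the genes. Listed by replicate number here and throughout, the WT livers had 5, 3 and 5 counts of it, and the Hom livers had 18, 45 and 23. Scaled, this was 0.279, 0.192 and 0.307 CPM in WT and 0.840, 1.86 and 0.991 CPM in Hom livers. Every Hom liver was above every WT liver, with Hom replicate 2 the highest of the group. The means were 0.260 ± 0.0599 CPM in WT and 1.23 ± 0.548 CPM in Hom livers (SD, n = 3 mice each), for a log2 fold change of 2.22 ± 0.46 (SE; adjusted p = 0.00939, edgeR). The increase passed the threshold in all 13 alternatives that tested the gene, with log2 fold changes of 1.79 to 2.68. Tnf passed the filter on low counts only through the Hom livers, so its being tested and its being higher were linked. A minimum of 10 counts in every liver left it out, and 7 of the other 9 genes were then higher.

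Of the receptors, Tnfrsf12a rose and Tnfrsf1b did not pass the test. Tnfrsf1b encodes TNFR2, the TNF receptor found mostly on leukocytes and endothelial cells. It was at 64.7, 62.0 and 34.8 CPM in the WT livers and at 41.0, 47.3 and 41.3 CPM in the Hom livers. WT replicates 1 and 2 were above all Hom livers and WT replicate 3 was below them, so that the groups overlapped. Its log2 fold change was −0.32, with a 95% interval from −0.85 to 0.21 (adjusted p = 0.288, edgeR). Without WT replicate 3 it was −0.56 (adjusted p = 0.0102), and with library size alone in place of TMM factors it was 0.13.

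Tnfrsf12a encodes Fn14, the receptor for the TNF family ligand TWEAK, which is low in resting tissue and induced by injury. It was at 8.71, 5.84 and 4.79 CPM in the WT livers and at 40.6, 27.3 and 26.5 CPM in the Hom livers. The lowest Hom value was above the highest WT value, and Hom replicate 1 was the highest. Means of 6.45 ± 2.03 and 31.4 ± 7.91 CPM (SD, n = 3 mice each) gave a ratio of 4.88 and a log2 fold change of 2.28 ± 0.27 (SE; adjusted p = 0.00124, edgeR). Without Hom replicate 1 the log2 fold change was 2.06. This was the only one of the 10 genes that was highest in Hom replicate 1 among the Hom livers, and the other 9 were lowest there.

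Of the genes for 2 negative regulators, both known targets of NF-κB, Tnfaip3 rose and Nfkbia did not pass the test. Nfkbia encodes IκBα, the inhibitor that holds RelA in the cytoplasm. It was at 67.5, 41.1 and 45.7 CPM in the WT livers and at 39.3, 46.8 and 53.5 CPM in the Hom livers. The groups overlapped, and WT replicate 1 was the highest of all 6. Its log2 fold change was −0.14, with a 95% interval from −0.62 to 0.34 (adjusted p = 0.596, edgeR). The sign rested on the settings, since the value was 0.097 without WT replicate 1 and 0.30 with library size alone, and in none of 14 alternatives did it pass the threshold.

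Tnfaip3 encodes A20, a ubiquitin-editing enzyme that shuts the pathway off upstream of IKK. It was at 4.69, 2.76 and 3.38 CPM in the WT livers and at 17.3, 17.7 and 22.7 CPM in the Hom livers. The groups were far apart, with all Hom livers near one another. The ratio of means was 5.33 and the log2 fold change 2.41 ± 0.22 (SE; adjusted p = 5.86e-04, edgeR), the smallest adjusted p of the 10 genes.

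Nfkb2 and Relb, which encode the p100/p52 and RelB subunits of the non-canonical arm, both rose. Nfkb2 was at 17.0, 11.8 and 13.2 CPM in the WT livers and at 35.2, 38.8 and 40.4 CPM in the Hom livers. Means of 14.0 ± 2.67 and 38.1 ± 2.66 CPM (SD, n = 3 mice each) gave a log2 fold change of 1.44 ± 0.14 (SE; adjusted p = 7.54e-04, edgeR). Relb was at 3.35, 3.02 and 1.23 CPM in the WT livers and at 9.71, 17.8 and 15.8 CPM in the Hom livers. For both genes the groups were separate, and the lowest Hom liver was replicate 1. The log2 fold change of Relb, 2.51 ± 0.39 (SE; adjusted p = 0.00323, edgeR), had the highest value of the 10 genes, with a ratio of means of 5.70. Without Hom replicate 1 it was 2.72. The first place of Relb did not hold in each fit: without WT replicate 3 it was at 2.17 and Tnfaip3 at 2.35. Without Hom replicate 2 the values were 2.33 for Relb and 2.46 for Tnfaip3.

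Birc3 encodes cIAP2, a ubiquitin ligase that protects cells from TNF-induced death. It was at 18.04, 15.9 and 13.2 CPM in the WT livers and at 25.3, 33.4 and 35.9 CPM in the Hom livers. The groups were separate, and the ratio of means was 2.01. The log2 fold change was 1.00 ± 0.17 (SE; adjusted p = 0.00443, edgeR). Birc2, the neighbouring paralog encoding cIAP1, was also higher (log2 fold change 0.77, adjusted p = 0.00481, edgeR), and reads shared between the 2 genes could have been split by the authors' estimation.

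The adhesion molecules Icam1 and Vcam1 are displayed by activated endothelium and bind integrins of leukocytes. Icam1 was at 23.3, 8.85 and 7.56 CPM in the WT livers and at 39.8, 48.1 and 46.3 CPM in the Hom livers. All Hom livers were above all WT livers, but WT replicate 1 was 2.84 times the mean of the other WT livers. The log2 fold change was 1.75 ± 0.40 (SE; adjusted p = 0.0136, edgeR). It was 2.44 without WT replicate 1 (adjusted p = 5.13e-04), and without WT replicate 2 it was 1.52 and no longer past the threshold (adjusted p = 0.0522, edgeR).

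Vcam1 was at 27.98, 15.9 and 10.6 CPM in the WT livers and at 31.4, 37.9 and 33.8 CPM in the Hom livers. The groups did not overlap, though WT replicate 1 was close to the lowest Hom liver. For Vcam1 the log2 fold change was 0.92, with a 95% interval from 0.17 to 1.67 before adjustment, and the adjusted p was 0.0535 (edgeR). The call rested on the settings, since it passed in 5 of 14 alternatives: without WT replicate 1 (log2 fold change 1.37, adjusted p = 0.00397), with library size alone (adjusted p = 0.0176), with DESeq2 (0.0117), with a minimum of 10 counts in each liver (0.0459) and with upper-quartile factors (0.0426).

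**Figure D2:**
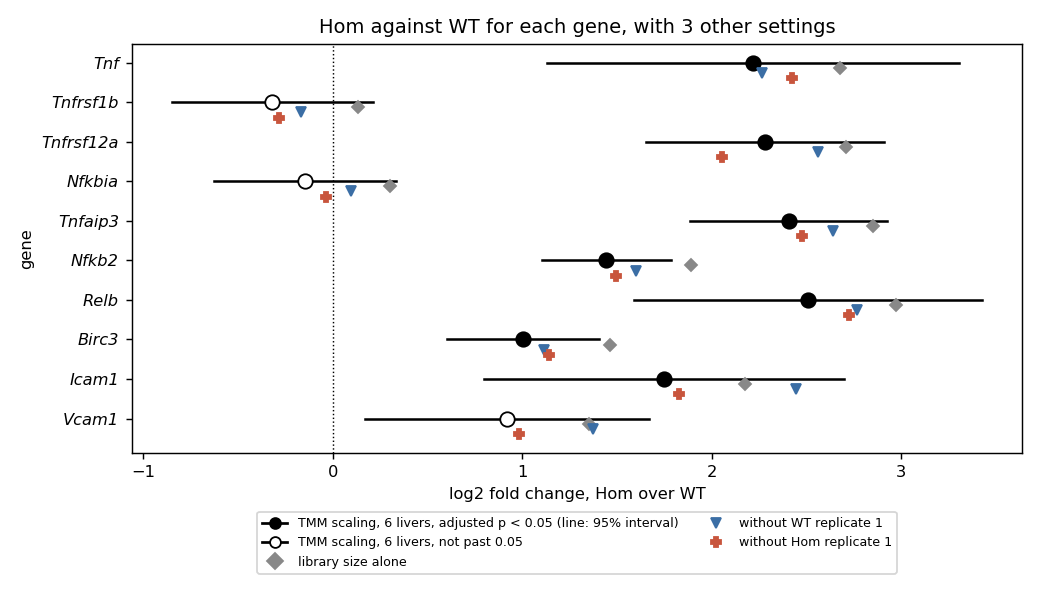
Log2 fold change of Hom over WT for each response gene; circles are the values with TMM scaling and 6 livers, filled where the adjusted p was under 0.05, lines are 95% intervals, and the smaller symbols are the values with library size alone and without replicate 1 of either group. The 7 filled circles sit between 1.00 and 2.51, and the values for Nfkbia and Tnfrsf1b lie on either side of 0 depending on the setting.

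The 7 higher genes stayed past the threshold without Hom replicate 1. Without WT replicate 1 the number was 8, with Vcam1 added. Among the WT livers, replicate 1 was the highest for 9 of the 10 genes, the exception being Tnf, by 1.24 times the mean of the other WT livers for Birc3 to 2.84 times for Icam1. Summed over the 10 genes, the level was 236, 167 and 135 CPM in the WT livers, and the Hom livers had 280, 317 and 317 CPM. Scaling mattered for the size of each change: with library size alone the all-gene median log2 value was 0.45 and the median of the 10 genes was 2.03. With that scaling 8 of the 10 genes were higher, but so were 47.6% of all genes.

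Compared per length, in the authors' TPM values, the order of the genes differed between the groups. In WT livers Nfkbia was the most abundant, at 49.5 ± 19.6 TPM (SD, n = 3 mice), followed by Tnfrsf1b at 16.2 ± 6.05 and Tnfrsf12a at 10.4 ± 4.48. Vcam1, Icam1, Birc3 and Nfkb2 followed at 8.09, 7.94, 7.59 and 5.62 TPM, with overlapping livers between each neighbour in this row, Tnfrsf1b included. Relb, at 1.72, and Tnfaip3, at 1.23 TPM, overlapped with each other, and Tnf was below all at 0.243 TPM. In Hom livers Tnfrsf12a came first, at 75.5 ± 13.3 TPM, and overlapped with Nfkbia, at 67.8 ± 13.8 TPM (SD, n = 3 mice each). Icam1 was the third, at 39.4 TPM, with no overlap on either side. Nfkb2, Birc3, Vcam1, Tnfrsf1b, Relb and Tnfaip3 followed from 25.2 down to 9.87 TPM, each overlapping with the next, and Tnf was again below all, at 1.74 TPM. In mean TPM Tnfrsf12a was thus the third gene in WT and the first in Hom livers, a description with no test.

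The other genes of the pathway were described with 7 lists of 116 genes, of which 114 were in the table and 91 were tested. Of these 91, 43 were higher and 8 lower (edgeR, adjusted p under 0.05), against 21.5% higher and 20.1% lower among all genes tested, and their median log2 fold change was 0.69, against −0.0018 over all genes tested. With library size alone the numbers were 65 higher and 3 lower, against 47.6% and 4.65% of all genes.

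**Figure D3:**
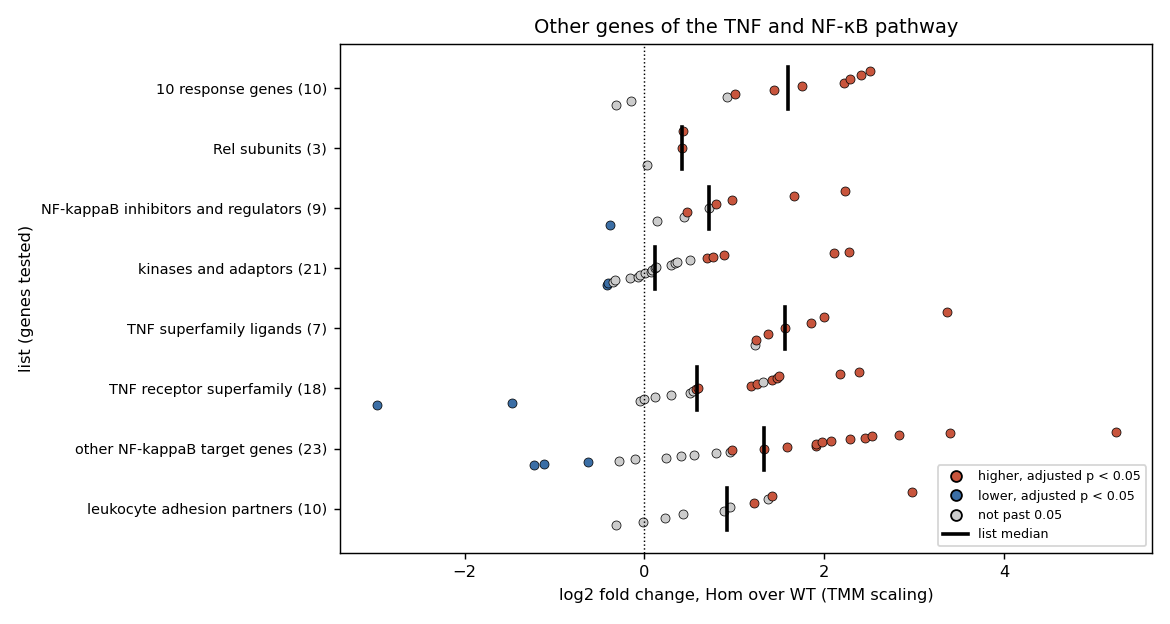
Log2 fold change of Hom over WT (TMM scaling) for the tested genes of each pathway list and for the 10 response genes; each point is a gene, coloured by its call, and the black bar is the list median. The list medians run from 0.12 for kinases and adaptors to 1.60 for the 10 response genes.

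Among the other Rel subunits, Nfkb1, the gene of p105/p50, was higher, with a log2 fold change of 0.42 (adjusted p = 0.00641, edgeR). Rel, the gene of c-Rel, had the same value of 0.42 (adjusted p = 0.0192), but missed the threshold without WT replicate 2 or 3 or Hom replicate 2 or 3 (adjusted p from 0.05, after rounding, to 0.0741, edgeR). Rela, the gene of the main transactivating subunit, had a log2 fold change of 0.033 (adjusted p = 0.806), with counts of 1277, 1086 and 1017 in WT and 1333, 1761 and 1701 in Hom livers. With library size alone Rela was at 0.49 and passed the threshold (adjusted p = 0.0237, edgeR). Thus 2 of 3 were higher, where 21.5% of all genes were. The number was 1 without WT replicate 2 or 3 or Hom replicate 2 or 3. With library size alone it was 3, where 47.6% of all genes were higher. The changes of Nfkb2 and Relb given above were larger than those of Nfkb1, Rel and Rela in log2 terms, a difference that was not tested.

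Of 9 tested inhibitors and regulators, 5 were higher and 1 lower (all genes, 21.5% and 20.1%), and the list median was a log2 fold change of 0.71. Nfkbie, which encodes IκBε, had 67, 34 and 50 counts in WT and 273, 338 and 363 in Hom livers (log2 fold change 2.23, adjusted p = 6.37e-04, edgeR). Tnip1, an A20-binding inhibitor of NF-κB, had 208, 157 and 179 counts in WT and 611, 863 and 909 in Hom livers (log2 fold change 1.66, adjusted p = 4.74e-04, edgeR). Both stood with Tnfaip3, and apart from Nfkbia, in having separate groups. Otulin, a deubiquitinase that trims linear ubiquitin chains, was lower with TMM factors (log2 fold change −0.38, adjusted p = 0.0147), but had 0.073 with library size alone and an adjusted p of 0.0591 without Hom replicate 3 (edgeR). The number higher was 3 without WT replicate 3 or Hom replicate 2.

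Of 21 kinases and adaptors, 5 were higher and 2 lower, and the list median was 0.12. The number higher was near the 21.5% of all genes. With library size alone 15 were higher and 0 lower, where 47.6% of all genes were higher. The genes with the largest increases were Traf1, an adaptor that NF-κB itself induces, and Map3k14, which encodes NIK. Traf1 had 10, 3 and 7 counts in WT and 22, 59 and 55 in Hom livers (log2 fold change 2.27, adjusted p = 0.0118, edgeR). Map3k14 had 36, 57 and 46 counts in WT and 209, 348 and 286 in Hom livers (log2 fold change 2.10, adjusted p = 0.00139, edgeR). For both genes every Hom liver was above every WT liver. The catalytic IKK subunits were not higher with TMM factors: Ikbkb had a log2 fold change of 0.088 (adjusted p = 0.435), and Chuk, which encodes IKKα, was lower by TMM scaling (log2 fold change −0.40, adjusted p = 0.00640, edgeR) with 0.052 under library size alone. Map3k7, the gene of TAK1, was likewise at −0.42 (adjusted p = 0.00808, edgeR) with TMM factors and at 0.035 with library size alone. The number lower in the list was 4 without Hom replicate 3.

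Of the TNF superfamily ligands other than Tnf, 7 of 17 had enough counts to be tested, 6 of these were higher and 0 lower in edgeR, 6 and 0 at an unadjusted p below 0.05, and 5 and 0 in DESeq2, where 21.5% of all genes were higher in edgeR. Their median log2 fold change was 1.56. Some ligands passed the filter only through their Hom counts, so for them being tested and being higher were linked. Tnfsf14, for instance, had 5, 3 and 5 counts in WT and 17, 18 and 12 in Hom livers. With at least 10 counts in every liver, 3 ligands were tested and 3 were higher. Ltb, which encodes lymphotoxin β, a ligand of the non-canonical arm, had 22, 9 and 8 counts in WT and 120, 191 and 246 in Hom livers (log2 fold change 3.36, adjusted p = 0.00140, edgeR). Tnfsf12, which encodes TWEAK, the ligand of Fn14, had 296, 211 and 223 counts in WT and 766, 813 and 794 in Hom livers (log2 fold change 1.24, adjusted p = 4.65e-04, edgeR). The ligand and its receptor Tnfrsf12a were thus both higher. Tnfsf12 and Tnfsf13 lie next to each other and share transcripts, so that their counts are uncertain. Tnfsf13b, the gene of the B cell factor BAFF, had 15, 7 and 2 counts in WT and 29, 63 and 42 in Hom livers (log2 fold change 2.00, adjusted p = 0.0292, edgeR), and its call was lost without WT replicate 2 (adjusted p = 0.0959), Hom replicate 2 (0.106) or Hom replicate 3 (0.0794). The number of higher ligands was 3 without WT replicate 2.

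Among 18 tested receptors of the family, 9 were higher and 2 lower (all genes, 21.5% and 20.1%), and the list median was a log2 fold change of 0.58. Tnfrsf1a encodes TNFR1, the widely expressed TNF receptor. It had 1552, 1308 and 1301 counts in WT and 2957, 2685 and 2852 in Hom livers, and its log2 fold change was 0.57 (adjusted p = 0.00517, edgeR). Unlike Tnfrsf1b above, Tnfrsf1a had no overlap between the groups. The largest increase was that of Tnfrsf11a, the gene of RANK, with 13, 13 and 12 counts in WT and 71, 132 and 77 in Hom livers (log2 fold change 2.39, adjusted p = 0.00150, edgeR). Tnfrsf11b, the gene of osteoprotegerin, the soluble decoy that keeps the RANK ligand away from RANK, fell from 92, 59 and 62 counts in WT to 7, 11 and 19 in Hom livers (log2 fold change −2.98, adjusted p = 0.00146, edgeR). Ngfr, the gene of the low-affinity neurotrophin receptor, had 191, 102 and 102 counts in WT and 73, 49 and 70 in Hom livers (log2 fold change −1.48, adjusted p = 0.00796, edgeR). Tnfrsf13b, a receptor of B cells, had a log2 fold change of 2.17 (adjusted p = 0.0410, edgeR) that failed the threshold in each fit that left out a liver other than WT replicate 1 (adjusted p of 0.0671 to 0.123). The number of higher receptors was 5 without WT replicate 2, Hom replicate 2 or Hom replicate 3.

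Other known NF-κB target genes gave 13 higher and 3 lower of 23 tested (all genes, 21.5% and 20.1%) and had a median log2 fold change of 1.33. Lcn2, which encodes the iron-binding injury protein lipocalin-2, had 3433, 183 and 85 counts in WT and 96880, 50438 and 29560 in Hom livers. WT replicate 1 was far above the other WT livers and Hom replicate 1 was the highest of all. For Lcn2 the log2 fold change was 5.24 (adjusted p = 0.0263, edgeR). It was 8.27 without WT replicate 1 (adjusted p = 0.00183), and it missed the threshold without WT replicate 2 (4.73, adjusted p = 0.0724), Hom replicate 1 (4.59, 0.0536) or Hom replicate 2 (5.38, 0.0535). Cx3cl1, the gene of the membrane-bound chemokine fractalkine, had 34, 32 and 27 counts in WT and 348, 478 and 543 in Hom livers (log2 fold change 3.40, adjusted p = 1.59e-04, edgeR). The livers of each group were close together for this gene. Sdc4, a cell surface proteoglycan that hepatocytes express, fell from 8731, 8480 and 7464 counts in WT to 4266, 4776 and 5531 in Hom livers (log2 fold change −1.23, adjusted p = 8.06e-04, edgeR). Saa3, an acute phase gene, had a log2 fold change of −1.12 (adjusted p = 0.0340, edgeR), and its call was lost without WT replicate 1 (adjusted p = 0.0823), WT replicate 3 (0.0534), Hom replicate 2 (0.105) or Hom replicate 3 (0.0901) and with library size alone (0.138).

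The partners of the adhesion molecules gave 3 higher and 0 lower of 10 tested in edgeR, 5 and 0 at an unadjusted p below 0.05, and 6 and 0 in DESeq2. The count of 3 was near the 21.5% of all genes called higher. The list median was a log2 fold change of 0.92. Itgax, which encodes CD11c, an integrin chain of dendritic cells and some macrophages, had 33, 16 and 19 counts in WT and 112, 354 and 282 in Hom livers (log2 fold change 2.97, adjusted p = 0.00272, edgeR). Itga4, which encodes the α4 chain of the VCAM-1 receptor VLA-4, had 207, 132 and 121 counts in WT and 383, 540 and 547 in Hom livers (log2 fold change 1.21, adjusted p = 0.00343, edgeR). Its partner chain Itgb1, which most cells express, had a log2 fold change of 0.23 (adjusted p = 0.0666). For LFA-1, the ICAM-1 receptor, Itgal had 474, 157 and 154 counts in WT and 306, 661 and 474 in Hom livers (log2 fold change 0.43, adjusted p = 0.456, edgeR), and Itgb2 had a log2 fold change of 0.96 (adjusted p = 0.110). WT replicate 1 held the most counts of both genes among the WT livers. Without it, Itgal passed at 1.08 (adjusted p = 0.0257), Itgb2 passed at 1.62 (adjusted p = 0.00546, edgeR) and the number higher in the list was 7, as it also was with library size alone, where 47.6% of all genes were higher. Selplg, a selectin ligand of leukocytes, had a log2 fold change of 1.42 (adjusted p = 0.0477, edgeR) with overlapping groups, and lost its call without WT replicate 2 or 3 or Hom replicate 2 or 3 (adjusted p of 0.103 to 0.144).

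Markers of several cell types moved with the genotype beside these genes. The counts of called markers stand beside 21.5% higher and 20.1% lower among all genes, or 47.6% and 4.65% with library size alone. The 12 hepatocyte markers, with Alb and Hnf4a among them, summed to 143000 to 173700 CPM in WT and 61990 to 81540 CPM in Hom livers, with 9 of 12 lower. Alb gave most of that sum, and without it the sums were 46590 to 51390 CPM in WT and 22380 to 25770 CPM in Hom livers. The number lower was 5 without Hom replicate 3 and 4 with library size alone. The 8 cholangiocyte markers summed to 52.5 to 77.2 CPM in WT and 588 to 826 CPM in Hom livers, with 6 of 8 higher. Spp1 gave most of that sum, and Krt19 was at 0.922 to 2.46 CPM in WT and 15.1 to 21.5 CPM in Hom livers. The 8 stellate cell markers summed to 309 to 376 and 576 to 630 CPM, with 4 of 8 higher and 1 lower. The 8 endothelial markers, the cells on which Icam1 and Vcam1 are best known, summed to 173 to 237 CPM in WT and 101 to 112 CPM in Hom livers, with 5 of 8 lower, or 3 lower and 1 higher with library size alone. The 5 lower were Kdr, Stab2, Clec4g, Tek and Oit3. Pecam1 (log2 fold change 0.078, adjusted p = 0.586), Cdh5 (−0.54, 0.092) and Lyve1 (0.29, 0.64) did not pass (edgeR). Icam1 was thus higher, and Vcam1 had a positive value, in livers whose summed endothelial markers were lower, though not each marker of the list fell. The part of these shifts in the results was not tested.

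Leukocyte markers were less clear-cut. With all 6 livers, the numbers called in the monocyte and neutrophil list and in the macrophage list were near the all-gene shares. Ptprc was at 14.7 CPM in WT replicate 1, at 4.68 to 4.98 CPM in the other WT livers and at 17.1 to 31.0 CPM in Hom livers, and its log2 fold change of 1.62 (adjusted p = 0.0299, edgeR) failed the threshold without WT replicate 2 or 3 or Hom replicate 2 or 3 (adjusted p of 0.0790 to 0.0914). The 8 monocyte and neutrophil markers summed to 47.6 to 207 CPM in WT and 178 to 250 CPM in Hom livers, with 2 of 7 tested higher, 4 when WT replicate 1 was left out and 1 when replicate 2 or 3 of either group was left out. The 8 macrophage markers summed to 187 to 487 CPM in WT and 174 to 265 CPM in Hom livers. Cd68 was higher, and the resident Kupffer cell genes Clec4f and Timd4 were lower. The list had 3 higher and 1 lower without WT replicate 1, and 0 to 1 higher and 1 to 3 lower when any other single liver was left out. The 8 lymphocyte markers were at 5.77 to 8.43 CPM in WT and 7.61 to 13.4 CPM in Hom livers. No marker on any list was at 0 in all livers. The macrophage and monocyte lists, Ptprc and 9 of the 10 response genes were all highest among WT livers in replicate 1, and the part of leukocyte content in that rise was not tested.

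**Figure D4:**
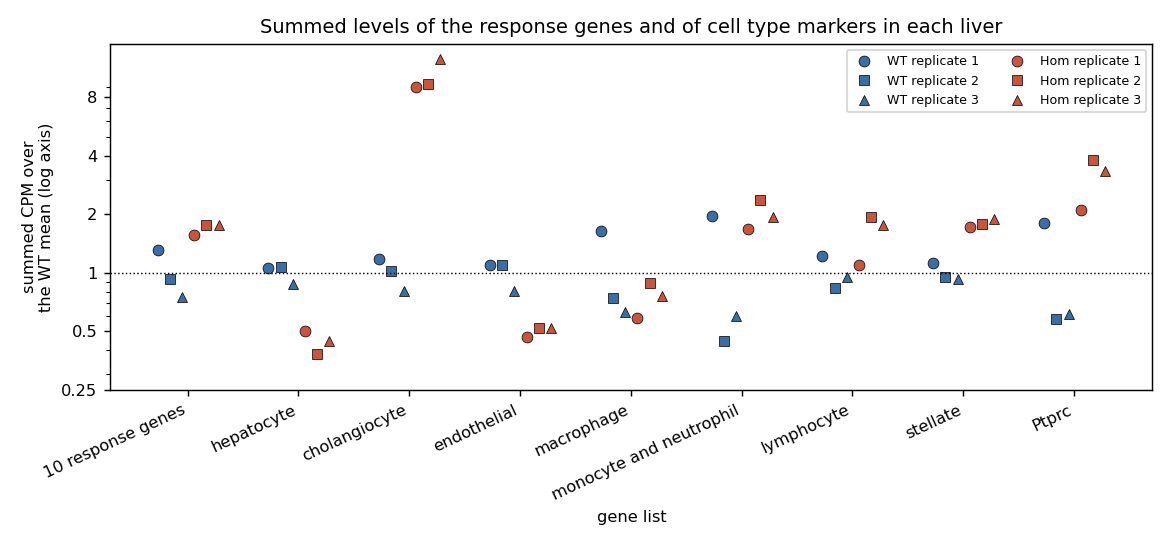
Summed CPM of the 10 response genes and of each cell type marker list in each liver, divided by the mean of the 3 WT livers, on a log axis; symbols give the replicate, blue is WT and red is Hom. Hepatocyte and endothelial sums are lower and cholangiocyte and stellate sums higher in all 3 Hom livers, and WT replicate 1 is the highest WT liver for the response genes, macrophage, monocyte and neutrophil, lymphocyte and Ptprc levels.

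The mean standardised log2 level of the 10 genes was −0.0070, −0.75 and −1.09 in the WT livers, with 0.36, 0.76 and 0.71 in the Hom livers. Of the 5 non-member genes whose log2 CPM followed this profile most closely, among 12856 with a mean of at least 1 CPM, 4 are given here: Ptpn18 (Pearson r of 0.9983 over the 6 livers), Tbc1d9 (0.9971), Arrdc1 (0.9970) and Fmnl1 (0.9957). These 4 had positive log2 fold changes, from 1.26 for Arrdc1 to 1.77 for Fmnl1. The 6 livers share the difference between the groups, and the genes were picked as the closest of very many, so these values describe the likeness and carry no test.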

How the data were processed

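Total RNA from 3 WT and 3 Hom livers was sequenced on the DNBSEQ platform. The submitters' processing notes name HISAT2 2.0.4, Bowtie2 2.2.5, RSEM 1.2.12 and the build mm9; the annotation and strandedness are not given in the sources used here. The authors deposited unscaled estimated counts (expected counts, 65.9% of them whole within 0.005), FPKM and TPM values for each liver. The authors made FPKM by dividing by gene length and depth, and it served only to recover gene length. The authors' TPM was used only to order genes by level. The authors' group mean columns, whose names are crossed for all 17975 genes, were not used.

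Rounded counts were tested with edgeR 4.0.16 in R 4.3.3 (filterByExpr, TMM factors, quasi-likelihood test, Benjamini-Hochberg adjustment over 13805 genes); standard errors come from the fold change and the F statistic. Totals of 19349418 to 19730236 counts per liver limit mainly genes with few counts. Replicates are separate mice. Alternatives were DESeq2 1.42.0, library size alone, upper-quartile factors, other filters, a loess correction for gene length, the replicate block, each liver left out, and a minimum log2 fold change of 1. The fits were tested on simulated data with changes in both directions and no shift in composition, which does not bear on the choice of scaling. The response genes and all gene lists were chosen with earlier results of these data known, and Tnfsf4 and Cd70 were not analysed here. Named genes were the 10 response genes, their direct partners, up to 2 called genes with the largest increase and decrease in each pathway list, Nek7, Ptprc and the 5 closest profiles, of which 1 is not reported here.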

Additional observations from a re-analysis of the deposited data

How the results depend on the processing

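Of the 10 response genes, 6 to 8 were higher under every alternative run, with 6 without WT replicate 2 and 8 with DESeq2, library size alone, upper-quartile factors or without WT replicate 1. The number lower was 0 throughout, except 1 (Tnfrsf1b) without WT replicate 3, so that leaving out each liver gave 0 to 1. Reversed signs were those of Nfkbia with library size alone (0.30) and without WT replicate 1 (0.097, the highest of the fits that left out a liver, with −0.29 without WT replicate 2 the lowest), of Tnfrsf1b with library size alone (0.13), of Rela (0.10 without Hom replicate 1) without WT replicate 3 (−0.029), Hom replicate 2 (−5.91e-04) or Hom replicate 3 (−0.0077), and, with library size alone, of Chuk (0.052), Otulin (0.073) and Map3k7 (0.035). The other pathway genes gave 43 higher and 8 lower, 65 and 3 with library size alone, and 4 lower where a log2 change of 1 or more was also required; leaving out each liver gave 31 to 49 higher and 7 to 8 lower.

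Over all genes, 2974 were higher and 2780 lower, 6574 and 642 with library size alone, 1825 and 575 with the minimum fold change, and 1829 or 1767 were lower without Hom replicate 2 or 3. The higher share of called genes was 51.7%, 91.1% with library size alone and 62.8% with upper-quartile factors. With the replicate block 7 response genes and 32 other pathway genes were higher; same-numbered livers did not deviate together (correlations −0.11, −0.056 and −0.049), and they are different mice. Among the inhibitors and regulators 3 were then higher, and 5 of the receptors. At least 10 counts in every liver removed Tnf. The cause of these shifts was not tested.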
